A study of Homo sapiens with 14 samples.

Results

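Integrin subunits and laminin chains were examined in RNA counts from cultured SH-EP cells, a human neuroblastoma line of mesenchymal type that is long established. The genes were chosen by symbol: protein-coding genes named ITGA or ITGB, or LAMA, LAMB or LAMC, with a number or letter. This gave 38 genes of the 61533 in the table, of which 26 are integrin subunits (18 alpha and 8 beta) and 12 are laminin chains. Genes that only share the start of such a name, among them ITGB1BP1, ITGB3BP and ITGBL1, were not included. The symbol rule itself used no measured value, but the genes were chosen with earlier results of these data known.

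Integrins are receptors in the cell membrane, each a pair of an alpha and a beta subunit, that hold cells to the extracellular matrix or to other cells. The pair sets the ligand: some bind collagens, some laminins, some the RGD motif of fibronectin and vitronectin, and those of leukocytes bind adhesion molecules on other cells. Laminins are the main self-assembling glycoproteins of basement membranes, each a trimer of an alpha, a beta and a gamma chain. Cells attached to a dish, such as SH-EP, hold on through integrins and deposit matrix of their own.

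There were 4 groups in 11 libraries. SPARK-ON cells express n-Myc carrying SPARK-ON, which per the series design lets lenalidomide bring n-Myc to phase separate at an unchanged protein concentration, and they had 3 libraries with lenalidomide and 3 in DMSO, the solvent. Control cells, the n-Myc control line without SPARK-ON, had 2 libraries with lenalidomide and 3 in DMSO. The SPARK-ON line is a single clone per the series design, so the clone and the construct cannot be told apart in any difference between the lines. The labels used here give neither a dose nor a time of treatment. Nor do they say whether replicates came from separate cultures; the p-values below cover the spread between these libraries alone, which may be technical.

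Total counts lay between 6614671 (SPARK-ON lenalidomide replicate 3) and 21511684 per library, and 3 counts correspond to 0.143 to 0.441 CPM, the usual unit of counts scaled to a common library size. Counts and floors cover counting error only. Reads counted as MYCN lay between 2186 and 2618 CPM in SPARK-ON libraries, against 2089 to 2762 CPM in control libraries. Control libraries varied more among themselves: the biological coefficient of variation was 4.71% among the 6 SPARK-ON libraries, against 12.9% among the 5 of the control line. A chi-square per degree of freedom over genes, which is near 1 for sampling noise, was 2.42 to 3.31 between SPARK-ON replicates. It was 14.8 between the control lenalidomide replicates, 29.4 and 25.1 between control DMSO replicate 1 and the other two, and 4.82 between those. SPARK-ON lenalidomide replicate 3, by its depth, and control DMSO replicate 1, by this measure, stood apart, and values without both are given where they change a call. All 7 mesenchymal markers were above 1 CPM in every group. They summed to 1464 to 1656 CPM in SPARK-ON libraries, against 2740 to 2852 CPM in control libraries, and most of the sum was VIM and CD44, both lower in every SPARK-ON library. Of the other 5, FN1 averaged 155 and 124 CPM in SPARK-ON cells with lenalidomide and in DMSO, against 87.1 and 82.8 CPM in control cells with lenalidomide and in DMSO, and NOTCH2 averaged 231 and 225 CPM, against 189 and 192 CPM in the same order, while the libraries of SNAI2, YAP1 and PRRX1 overlapped between the lines. The 7 adrenergic neuroblastoma markers summed to 5.0 to 8.28 CPM in SPARK-ON libraries, against 6.40 to 8.73 CPM in control libraries. Most of this was GATA3, at group means of 5.76 and 5.75 CPM in SPARK-ON cells with lenalidomide and in DMSO, against 8.25 and 6.56 CPM in control cells with lenalidomide and in DMSO; HAND2 averaged 0.427 and 1.10 CPM in SPARK-ON cells with lenalidomide and in DMSO, against 0 and 0.106 CPM in control cells with lenalidomide and in DMSO, and PHOX2A and ISL1 had no reads. The 5 endothelial markers summed to 2.51 to 6.85 CPM in SPARK-ON libraries, against 1.12 to 2.74 CPM in control libraries, and the 5 of muscle or Schwann cells to 1.58 to 2.54 CPM, against 0.822 to 2.71 CPM.

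The most abundant transcripts of the family, per kilobase of exons, were those of ITGB1, ITGA3 and ITGAV in every group, in this order. ITGB1, the beta subunit that pairs with most alpha subunits, averaged 80.4 CPM per kilobase in SPARK-ON cells with lenalidomide and 80.7 in SPARK-ON cells in DMSO, against 108 in control cells with lenalidomide and 103 in control cells in DMSO. ITGA3, a laminin receptor subunit, averaged 77.2 and 64.9 CPM per kilobase in SPARK-ON cells with lenalidomide and in DMSO, against 50.02 and 45.3 in control cells with lenalidomide and in DMSO. ITGAV, the alpha subunit of vitronectin receptors and of integrins that activate latent TGF-beta, lay between 33.8 and 37.4 CPM per kilobase. The libraries of ITGB1 and ITGA3 did not overlap in any group and came closest in SPARK-ON cells with lenalidomide, at 79.2 to 82.4 and 73.5 to 79.0 CPM per kilobase. Their order depends on the exon lengths used, 6011 bases for ITGB1 and 9802 for ITGA3, which count exons of all transcripts. By CPM alone ITGA3 was above ITGB1 in SPARK-ON cells, at 757 against 483 with lenalidomide and 637 against 485 in DMSO, and below it in control cells. Further down the order is less firm: of the 23 pairs of neighbours among the 24 genes with a mean of at least 5 CPM in some group, the libraries of 12 pairs overlapped in SPARK-ON cells with lenalidomide, 9 in SPARK-ON cells in DMSO, 10 in control cells with lenalidomide and 15 in control cells in DMSO.

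Among laminin chains LAMC1, LAMB2, LAMB1 and LAMA5 were highest per kilobase. LAMC1, the gamma chain of most laminins, averaged 26.9 to 27.4 CPM per kilobase over the groups. LAMB2 averaged 25.8 and 25.1 in SPARK-ON cells with lenalidomide and in DMSO, against 33.3 and 32.6 in control cells with lenalidomide and in DMSO. The mean of LAMC1 was above that of LAMB2 in SPARK-ON cells and below it in control cells, and their libraries overlapped in every group except control cells with lenalidomide. LAMA5 and LAMA4 were the leading alpha chains in every group, with group means of 12.4 to 16.7 and 8.12 to 10.6 CPM per kilobase.

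The filter on low counts kept 31 of the 38, and the other 7 (ITGA10, ITGA8, ITGAL, ITGB6, ITGB7, LAMA1 and LAMB4) were too low for a test. LAMA1, the alpha chain of early embryonic basement membranes, had no read in any library. ITGB7 had 4 reads in control DMSO replicate 3 and none elsewhere, and ITGA8 had 1 read in each of 2 libraries. ITGA10 had 0 to 3 reads in SPARK-ON libraries, against 3 to 10 in control libraries. ITGB6, an epithelial subunit, had 0 to 6 reads in SPARK-ON libraries and none in control libraries, and LAMB4 had 1 to 12 reads in SPARK-ON libraries, against 0 to 2 in control libraries.

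**Figure D1:**
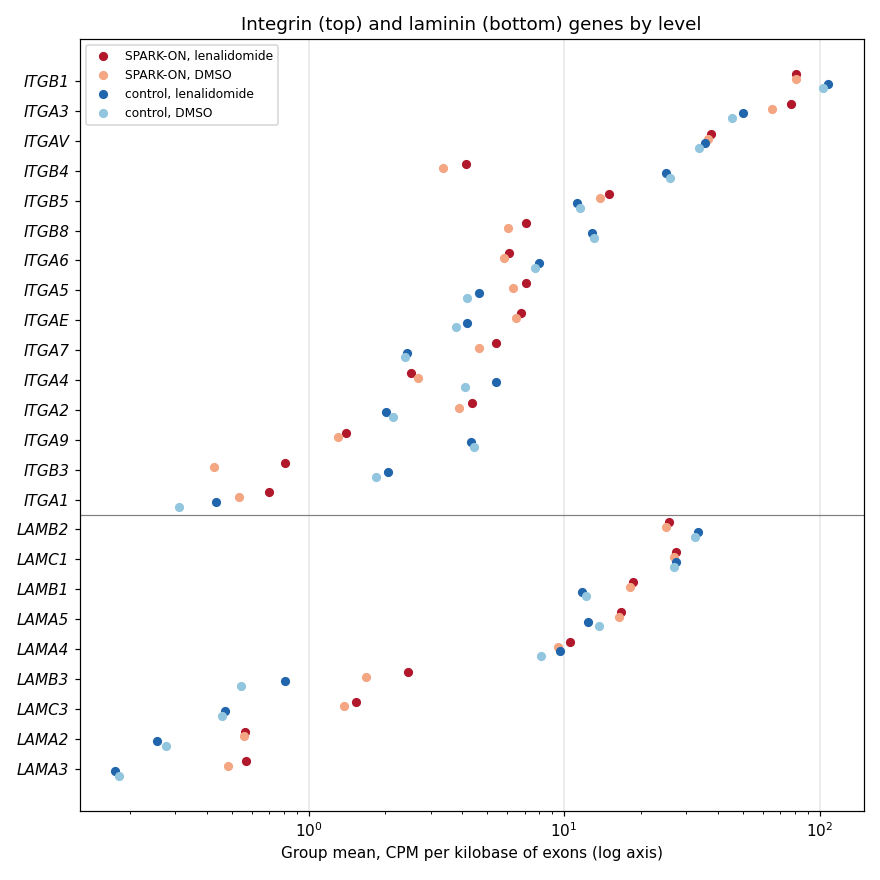
Group means of the 24 genes that reached 5 CPM in any group, in CPM per kilobase of exons on a log axis, with integrin subunits above the line and laminin chains under it. Points are means of 3 libraries, or of 2 for control cells with lenalidomide; ITGB4 shows the widest gap between lines, at 4.15 and 3.36 in SPARK-ON cells against 25.1 and 26.1 in control cells.

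The lines differed in most of these genes. In DMSO, 26 of the 31 genes tested passed between SPARK-ON and control cells in edgeR's quasi-likelihood test, 18 higher and 8 lower in SPARK-ON cells, where 21.1% of all 16056 genes tested were called higher, 20.4% lower and 41.6% either way. With lenalidomide, 24 of the 31 passed, 16 higher and 8 lower, where the shares over all genes were 19.7%, 19.7% and 39.4%. The genes called higher include ITGAM, ITGAX, ITGAD and, in DMSO, ITGA11, all of which passed the filter on low counts only through SPARK-ON libraries. The comparisons in DMSO and with lenalidomide share no library. The call and direction were the same in both for 23 genes, 15 higher and 8 lower, which is 88.5% of the calls in DMSO and 95.8% of those with lenalidomide. The same share over all genes was not computed, so nothing particular to these genes is read from it. The median change of the 31 was 0.58 on the log2 scale in DMSO and 0.63 with lenalidomide, against 0.01 and 0.02 over all genes tested. In bulk RNA, fewer cells with a transcript and less of it per cell cannot be told apart.

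**Figure D2:**
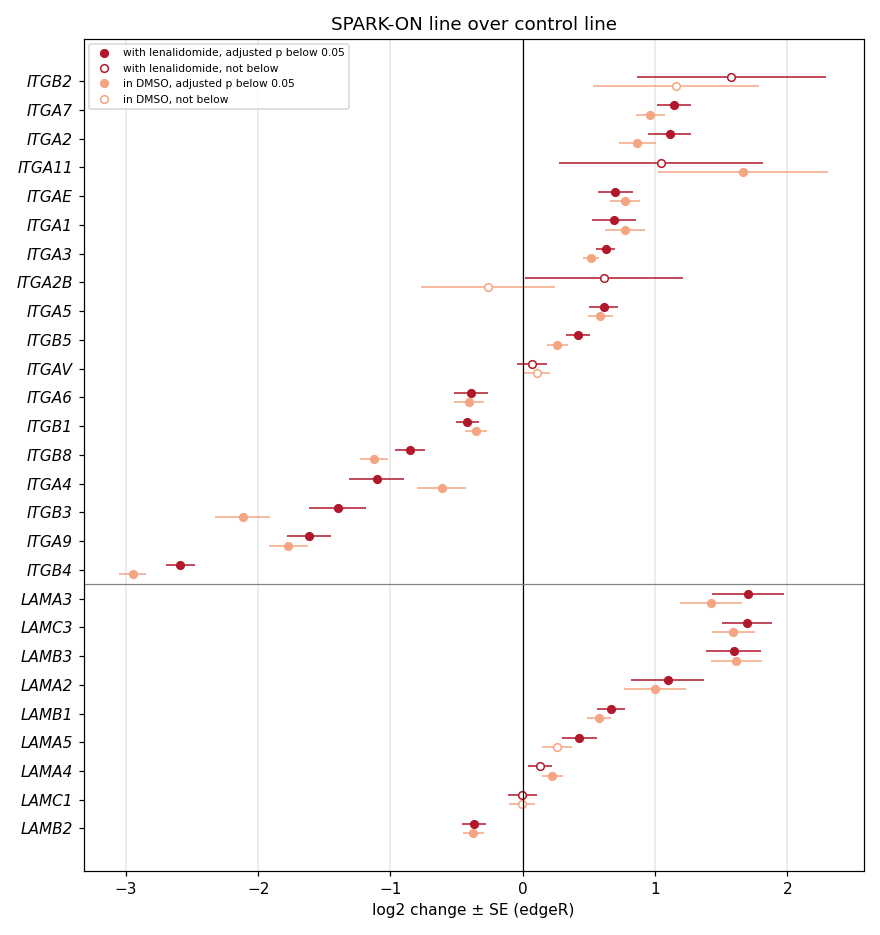
Difference of SPARK-ON over control cells for 27 of the 31 genes tested, as log2 change ± SE from edgeR, with lenalidomide and in DMSO. Filled points passed at an adjusted p below 0.05; ITGB4 lies furthest to the left at -2.59 and -2.95, and ITGAM, ITGAX and ITGAD are not drawn because control groups had no or almost no reads.

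Of the laminin-binding subunits, ITGB4 and ITGA6 were lower and ITGA3 and ITGA7 higher in SPARK-ON cells. ITGB4, the partner of ITGA6 in the laminin receptor of hemidesmosomes, had 29.8, 27.5 and 26.8 CPM in SPARK-ON cells with lenalidomide and 24.6, 19.7 and 24.0 CPM in SPARK-ON cells in DMSO, against 175 and 164 CPM in control cells with lenalidomide and 154, 185 and 190 CPM in control cells in DMSO. No SPARK-ON library came near a control library. ITGB4 was 6.01-fold lower with lenalidomide (log2 -2.59, SE 0.109, adjusted p = 2.43e-12) and 7.73-fold lower in DMSO (log2 -2.95, SE 0.102, adjusted p = 1.24e-13). By level per kilobase it ranked 16th of the 38 genes in both SPARK-ON groups and 6th in both control groups. ITGA6, the laminin-binding subunit that pairs with ITGB4 or ITGB1, had 35.4, 41.2 and 42.7 CPM in SPARK-ON cells with lenalidomide and 40.6, 32.8 and 40.1 CPM in SPARK-ON cells in DMSO, against 58.1 and 45.9 CPM in control cells with lenalidomide and 45.9, 53.8 and 51.0 CPM in control cells in DMSO. The groups of ITGA6 did not overlap within a treatment, although SPARK-ON lenalidomide replicate 3 at 42.7 CPM was close to control replicates at 45.9 CPM. Its change was -0.39 (SE 0.126, adjusted p = 0.0189) with lenalidomide and -0.41 (SE 0.111, adjusted p = 0.00672) in DMSO. The call of ITGA6 was lost with lenalidomide without SPARK-ON lenalidomide replicate 1 (-0.31, adjusted p = 0.102) or control lenalidomide replicate 1 (-0.22, adjusted p = 0.284), and in DMSO without SPARK-ON DMSO replicate 2 (-0.32, adjusted p = 0.0515).

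ITGA3, which binds laminins together with ITGB1, had 775, 774 and 720 CPM in SPARK-ON cells with lenalidomide and 631, 629 and 650 CPM in SPARK-ON cells in DMSO, against 490 and 491 CPM in control cells with lenalidomide and 430, 445 and 459 CPM in control cells in DMSO. All 6 SPARK-ON libraries were above all 5 control libraries. Its change was 0.63 (SE 0.0687, adjusted p = 8.81e-07) with lenalidomide and 0.52 (SE 0.0605, adjusted p = 1.52e-06) in DMSO. ITGA7, a laminin receptor subunit best known from muscle, had 29.9, 35.0 and 38.8 CPM in SPARK-ON cells with lenalidomide and 30.7, 30.6 and 27.5 CPM in SPARK-ON cells in DMSO, against 15.1 and 15.9 CPM in control cells with lenalidomide and 15.2, 14.2 and 16.0 CPM in control cells in DMSO. SPARK-ON libraries were again all above control libraries, with changes of 1.14 (SE 0.126, adjusted p = 9.13e-07) and 0.96 (SE 0.109, adjusted p = 1.01e-06) for ITGA7 with lenalidomide and in DMSO. Exons of ITGA7 share 44 bases with METTL7B on the other strand, at up to 4.36 CPM. Whether counting used strand is not stated in these sources, so reads of such overlapping genes cannot be assigned with certainty.

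Of the collagen-binding subunits, all 3 tested were called higher in SPARK-ON cells in DMSO, and 2 of them with lenalidomide. The 3 include ITGA11, which passed the filter on low counts only through SPARK-ON libraries, so its call in DMSO adds no support. The shares of all genes called higher were 21.1% in DMSO and 19.7% with lenalidomide. ITGA2, which binds collagen I with ITGB1, had 33.9, 34.3 and 35.0 CPM in SPARK-ON cells with lenalidomide and 30.4, 32.5 and 29.3 CPM in SPARK-ON cells in DMSO, against 16.9 and 14.9 CPM in control cells with lenalidomide and 12.4, 21.4 and 16.8 CPM in control cells in DMSO. Every SPARK-ON library exceeded every control library, and ITGA2 changed by 1.11 (SE 0.162, adjusted p = 2.58e-05) with lenalidomide and by 0.87 (SE 0.139, adjusted p = 6.08e-05) in DMSO. ITGA1, which prefers collagen IV, had 12.8, 13.6 and 12.5 CPM in SPARK-ON cells with lenalidomide and 10.4, 10.6 and 8.64 CPM in SPARK-ON cells in DMSO, against 9.23 and 6.97 CPM in control cells with lenalidomide and 5.26, 6.13 and 5.88 CPM in control cells in DMSO. The order of the ITGA1 groups was SPARK-ON with lenalidomide, SPARK-ON in DMSO, control with lenalidomide and control in DMSO from high to low, although SPARK-ON DMSO replicate 3 at 8.64 CPM was below control lenalidomide replicate 1 at 9.23 CPM. ITGA1 changed between lines by 0.69 (SE 0.166, adjusted p = 0.0028) with lenalidomide and by 0.78 (SE 0.15, adjusted p = 0.00041) in DMSO; without control lenalidomide replicate 2 the value with lenalidomide was 0.49 (adjusted p = 0.0675). Exons of PELO, a ribosome rescue factor gene at up to 54.1 CPM, share 475 bases with ITGA1 on the same strand. ITGA1 and ITGA2 are neighbours on chromosome 5, 30115 bases apart (GRCh38). ITGA11, a fibroblast collagen receptor subunit, had 0.294 to 0.858 CPM in SPARK-ON libraries, against 0.0595 to 0.434 CPM in control libraries. It passed in DMSO (log2 1.66, SE 0.644, adjusted p = 0.0467) and not with lenalidomide (log2 1.04, SE 0.771, adjusted p = 0.306), and the call was lost without any single DMSO library of the comparison except control DMSO replicate 1. Without them its adjusted p was 0.0623 to 0.144, and by DESeq2 it was 0.0918.

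The RGD-binding subunits split. ITGB3, the beta subunit of the vitronectin receptor, had 2.97, 3.12 and 4.56 CPM in SPARK-ON cells with lenalidomide and 1.92, 2.05 and 1.64 CPM in SPARK-ON cells in DMSO, against 9.80 and 8.14 CPM in control cells with lenalidomide and 7.0, 8.39 and 8.84 CPM in control cells in DMSO. The SPARK-ON libraries were all below the control libraries, and within the SPARK-ON line the lenalidomide libraries were above those in DMSO. ITGB3 changed by -1.40 (SE 0.216, adjusted p = 4.77e-05) with lenalidomide and by -2.12 (SE 0.206, adjusted p = 1.52e-07) in DMSO. ITGB8, which pairs with ITGAV to activate latent TGF-beta, had 109, 107 and 107 CPM in SPARK-ON cells with lenalidomide and 87.2, 100 and 85.6 CPM in SPARK-ON cells in DMSO, against 220 and 169 CPM in control cells with lenalidomide and 175, 226 and 194 CPM in control cells in DMSO. Its levels did not overlap between the lines, with changes of -0.85 (SE 0.114, adjusted p = 9.9e-06) with lenalidomide and -1.12 (SE 0.104, adjusted p = 7.8e-08) in DMSO. ITGA5, the fibronectin receptor subunit, had 53.2, 56.8 and 51.6 CPM in SPARK-ON cells with lenalidomide and 47.8, 48.4 and 46.8 CPM in SPARK-ON cells in DMSO, against 34.5 and 36.1 CPM in control cells with lenalidomide and 26.9, 34.3 and 34.0 CPM in control cells in DMSO. ITGA5 was higher in each SPARK-ON library than in any control library, by 0.61 (SE 0.109, adjusted p = 0.000197) with lenalidomide and by 0.59 (SE 0.0953, adjusted p = 6.92e-05) in DMSO.

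ITGB5, another vitronectin receptor subunit, had 106, 88.9 and 94.6 CPM in SPARK-ON cells with lenalidomide and 92.1, 85.6 and 89.5 CPM in SPARK-ON cells in DMSO, against 74.6 and 70.0 CPM in control cells with lenalidomide and 73.3, 71.0 and 78.7 CPM in control cells in DMSO. Its differences were small, at 0.42 (SE 0.0919, adjusted p = 0.00144) with lenalidomide and 0.26 (SE 0.0807, adjusted p = 0.0146) in DMSO, and the DMSO call was lost without SPARK-ON DMSO replicate 1 (adjusted p = 0.063) or control DMSO replicate 2 (adjusted p = 0.0516). ITGAV, the alpha partner of ITGB3, ITGB5 and ITGB8, had 296 to 313 CPM in SPARK-ON libraries, against 235 to 329 CPM in control libraries. Those ranges overlap, and the ITGAV change was 0.07 (SE 0.112, adjusted p = 0.653) with lenalidomide and 0.11 (SE 0.0993, adjusted p = 0.422) in DMSO, neither of which passed. ITGA2B, the platelet subunit, stayed at 0.420 to 1.47 CPM in SPARK-ON libraries, against 0.443 to 1.19 CPM in control libraries, without a call.

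ITGB1 had 479, 495 and 476 CPM in SPARK-ON cells with lenalidomide and 496, 476 and 484 CPM in SPARK-ON cells in DMSO, against 708 and 586 CPM in control cells with lenalidomide and 549, 670 and 642 CPM in control cells in DMSO. All control libraries were above all SPARK-ON libraries, and ITGB1 changed by -0.42 (SE 0.0891, adjusted p = 0.00104) with lenalidomide and by -0.35 (SE 0.0803, adjusted p = 0.00164) in DMSO.

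ITGA9 and ITGA4, which bind VCAM1, osteopontin and alternatively spliced fibronectin, were lower in SPARK-ON cells. ITGA9 had 10.3, 13.4 and 11.2 CPM in SPARK-ON cells with lenalidomide and 11.1, 9.44 and 11.7 CPM in SPARK-ON cells in DMSO, against 37.7 and 34.0 CPM in control cells with lenalidomide and 27.9, 41.1 and 41.5 CPM in control cells in DMSO. The highest SPARK-ON library of ITGA9, at 13.4 CPM, was below the lowest control library, at 27.9 CPM. ITGA9 changed by -1.62 (SE 0.166, adjusted p = 3.9e-07) with lenalidomide and by -1.77 (SE 0.149, adjusted p = 2.28e-08) in DMSO. Its exons share 535 bases with ITGA9-AS1 on the other strand, at up to 2.02 CPM. ITGA4 had 20.1, 19.1 and 20.3 CPM in SPARK-ON cells with lenalidomide and 20.5, 23.2 and 19.8 CPM in SPARK-ON cells in DMSO, against 49.3 and 36.1 CPM in control cells with lenalidomide and 20.2, 41.7 and 35.1 CPM in control cells in DMSO. Control DMSO replicate 1 lay within the SPARK-ON range, while the other 4 control libraries were above it. ITGA4 changed by -1.11 (SE 0.207, adjusted p = 0.000333) with lenalidomide and by -0.61 (SE 0.185, adjusted p = 0.0125) in DMSO; in DMSO the value was -0.87 without control DMSO replicate 1 (adjusted p = 1.29e-06), -0.39 without control DMSO replicate 2 (adjusted p = 0.0827) and -0.57 without SPARK-ON DMSO replicate 3 (adjusted p = 0.0539). ITGAE, the subunit of tissue-resident T cells that pairs with ITGB7 to bind E-cadherin, had 45.3, 48.1 and 41.6 CPM in SPARK-ON cells with lenalidomide and 41.2, 47.3 and 40.4 CPM in SPARK-ON cells in DMSO, against 26.0 and 29.6 CPM in control cells with lenalidomide and 30.3, 22.2 and 22.8 CPM in control cells in DMSO. SPARK-ON libraries were all above control libraries, by 0.70 (SE 0.133, adjusted p = 0.00039) with lenalidomide and 0.77 (SE 0.117, adjusted p = 3.2e-05) in DMSO for ITGAE. Its exons share 427 bases with HASPIN, a histone kinase gene on the other strand, at up to 28.4 CPM, and its partner ITGB7 was at 0 in every SPARK-ON library. Exons of ITGB7 share 1886 of their 4481 bases with ZNF740 on the other strand, at up to 47.0 CPM, so its reads are uncertain too.

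Reads of the leukocyte subunits ITGAM, ITGAX and ITGAD came almost only from SPARK-ON libraries. ITGAM, the alpha subunit of macrophage receptor Mac-1, had 2.67, 3.30 and 3.09 CPM in SPARK-ON cells with lenalidomide and 1.80, 2.18 and 1.48 CPM in SPARK-ON cells in DMSO, against 0.126 and 0 CPM in control cells with lenalidomide and no reads in control cells in DMSO. ITGAX, marker of dendritic cells as CD11c, had 2.18, 1.71 and 2.06 CPM in SPARK-ON cells with lenalidomide and 1.38, 1.19 and 1.43 CPM in SPARK-ON cells in DMSO, against no reads in control cells with lenalidomide and no reads in control cells in DMSO. ITGAD, a macrophage subunit close to both, had 0.727, 0.795 and 0.588 CPM in SPARK-ON cells with lenalidomide and 0.600, 0.858 and 0.716 CPM in SPARK-ON cells in DMSO, against 0.190 and 0.0532 CPM in control cells with lenalidomide and no reads in control cells in DMSO. Every SPARK-ON library had reads of each of the 3 genes, whereas all control DMSO libraries were at 0 and the control lenalidomide libraries held at most 3 reads per gene. Exons of ITGAD share 146 bases with AC093520.1 on the same strand, at up to 0.778 CPM, so reads there cannot be assigned with certainty.

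Summed over the SPARK-ON DMSO libraries there were 92 reads of ITGAM, 69 of ITGAX and 37 of ITGAD, against 0 for each in control DMSO libraries. These are at least 33.5-fold, 25.1-fold and 13.5-fold higher in SPARK-ON cells, with 3 counts over the control group as the floor. With lenalidomide ITGAX had 78 reads in SPARK-ON cells against 0, which is at least 22.7-fold higher, and ITGAM had 119 against 2, a ratio of 51.9 with a 95% counting interval of 14.1 to 434. ITGAM, ITGAX and ITGAD passed the filter on low counts only through SPARK-ON libraries, where they are high. Their call as higher by edgeR in both comparisons therefore adds no support to these reads. By edgeR, ITGAD with lenalidomide lost its call without SPARK-ON lenalidomide replicate 2 (adjusted p = 0.0534) or control lenalidomide replicate 2 (adjusted p = 0.202). The call was also lost when genes of low counts were kept (adjusted p = 0.0633). ITGB2, the only beta subunit that ITGAM, ITGAX and ITGAD pair with, had 0.420 to 1.39 CPM in SPARK-ON libraries, against 0.0956 to 0.651 CPM in control libraries. ITGB2 was not called, at 1.58 (SE 0.713, adjusted p = 0.0889) with lenalidomide and 1.16 (SE 0.626, adjusted p = 0.152) in DMSO. ITGAL, the lymphocyte subunit, had 0 to 9 reads in SPARK-ON libraries, against 0 or 1 in control libraries.

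The 3 genes lie side by side on chromosome 16, ITGAM at chr16:31259967-31332892, ITGAX at chr16:31355134-31382997 and ITGAD at chr16:31393312-31426505 (GRCh38), all on the plus strand. No other coding gene lies between them, while ITGAL is 736781 bases away with 37 coding genes between. A window of 200 kilobases around ITGAM, ITGAX and ITGAD was chosen after the values were seen. In it, TRIM72, a membrane repair gene at chr16:31214021-31231537, was the other gene with reads in SPARK-ON cells (0.532 and 0.326 CPM with lenalidomide and in DMSO) and none in control cells, apart from AHSP with 0.049 CPM in SPARK-ON cells with lenalidomide. Neighbours with reads in both lines varied. ARMC5 was at 18.6 and 16.6 CPM in SPARK-ON cells with lenalidomide and in DMSO, against 14.4 and 16.6 CPM in control cells with lenalidomide and in DMSO. RUSF1 averaged 30.2 and 26.1 CPM, against 20.4 and 25.0 CPM in the same order. BCKDK averaged 58.1 ± 4.0 and 51.9 ± 1.7 CPM, against 63.8 ± 6.9 and 60.8 ± 5.4 CPM (mean ± SD, same order). ZNF646 averaged 43.4 ± 5.7 and 42.4 ± 1.5 CPM, against 34.6 ± 1.8 and 35.0 ± 6.4 CPM. No test of these neighbours is given. The other 5 leukocyte markers summed to 2.66 to 3.76 CPM in SPARK-ON libraries, against 1.79 to 2.98 CPM in control libraries. Of these, the myeloid marker CSF1R averaged 1.43 and 1.12 CPM in SPARK-ON cells with lenalidomide and in DMSO, against 0.748 and 0.779 CPM in control cells with lenalidomide and in DMSO, and its libraries overlapped between the lines. CD14, another myeloid marker, averaged 1.41 and 1.85 CPM in SPARK-ON cells with lenalidomide and in DMSO, against 1.66 and 1.28 CPM in control cells with lenalidomide and in DMSO. CD3E was at 0 in every library and PTPRC, the pan-leukocyte gene, averaged at most 0.13 CPM in any group. The part of such cells in the values of ITGAM, ITGAX and ITGAD was not tested.

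**Figure D3:**
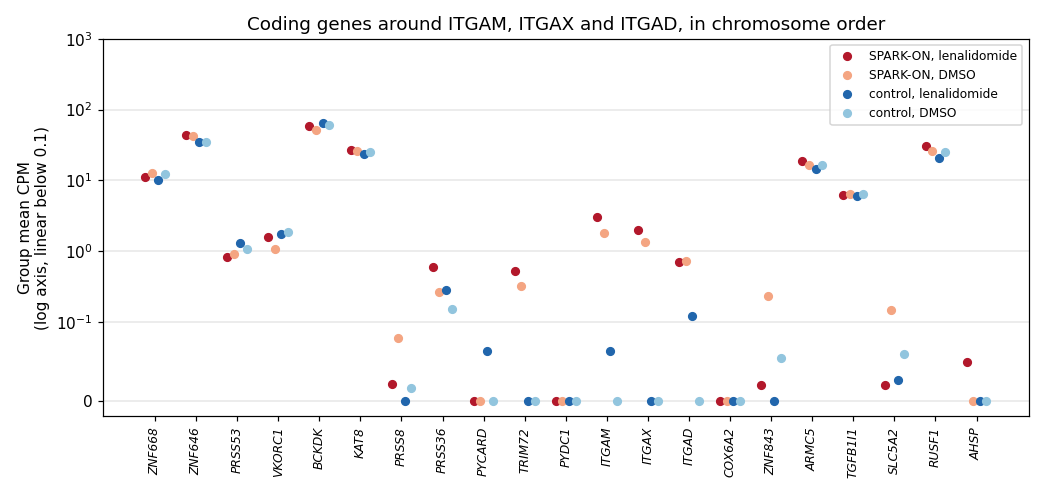
Group mean CPM of coding genes within 200 kilobases of ITGAM, ITGAX and ITGAD, in chromosome order, on an axis that is logarithmic above 0.1 CPM and linear under it. ITGAM, ITGAX, ITGAD and TRIM72 lie above 0.3 CPM in SPARK-ON cells and at or near 0 in control cells, while ARMC5 lies at 14.4 to 18.6 CPM over the 4 groups.

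Laminin chains were mostly higher in SPARK-ON cells: 7 of the 10 tested rose and 1 fell in DMSO, and 6 rose and 1 fell with lenalidomide. Over all genes tested, 21.1% were called higher and 20.4% lower in DMSO, and 19.7% higher and 19.7% lower with lenalidomide. LAMA3 and LAMB3 are chains of the epithelial laminin that anchors hemidesmosomes and is the ligand of the ITGA6 and ITGB4 pair. LAMA3 had 11, 6.30 and 7.80 CPM in SPARK-ON cells with lenalidomide and 7.80, 7.59 and 5.88 CPM in SPARK-ON cells in DMSO, against 2.66 and 2.50 CPM in control cells with lenalidomide and 2.17, 3.39 and 2.39 CPM in control cells in DMSO. LAMB3 had 10.9, 12.7 and 11 CPM in SPARK-ON cells with lenalidomide and 7.50, 8.51 and 7.62 CPM in SPARK-ON cells in DMSO, against 2.91 and 4.68 CPM in control cells with lenalidomide and 2.98, 2.26 and 2.44 CPM in control cells in DMSO. The lowest SPARK-ON library of each was above the highest control library, 5.88 against 3.39 CPM for LAMA3 and 7.50 against 4.68 CPM for LAMB3. LAMA3 changed by 1.70 (SE 0.273, adjusted p = 7.16e-05) with lenalidomide and by 1.42 (SE 0.233, adjusted p = 7.8e-05) in DMSO. LAMB3 changed by 1.59 (SE 0.211, adjusted p = 8.66e-06) with lenalidomide and by 1.62 (SE 0.193, adjusted p = 2.02e-06) in DMSO.

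The summed level of epithelial markers was also higher in SPARK-ON cells, at 45.1 to 59.6 CPM for the 6 genes, against 13.3 to 19.3 CPM in control libraries. KRT8, a simple epithelial keratin, averaged 33.1 and 28.0 CPM in SPARK-ON cells with lenalidomide and in DMSO, against 3.28 and 2.85 CPM in control cells. KRT18, its partner keratin, averaged 21.8 and 20.7 CPM in SPARK-ON cells with lenalidomide and in DMSO, against 13.0 and 12.3 CPM in control cells with lenalidomide and in DMSO. EPCAM, an epithelial adhesion molecule, averaged 1.03 and 0.193 CPM in SPARK-ON cells with lenalidomide and in DMSO, with 0.485 to 2.06 CPM over the lenalidomide libraries, and had no read in control cells. CDH1, KRT14 and KRT5 were at or near 0 in all groups, with CDH1 at no more than 0.06 CPM in any library. The part of the epithelial markers in the laminin values was not tested.

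**Figure D4:**
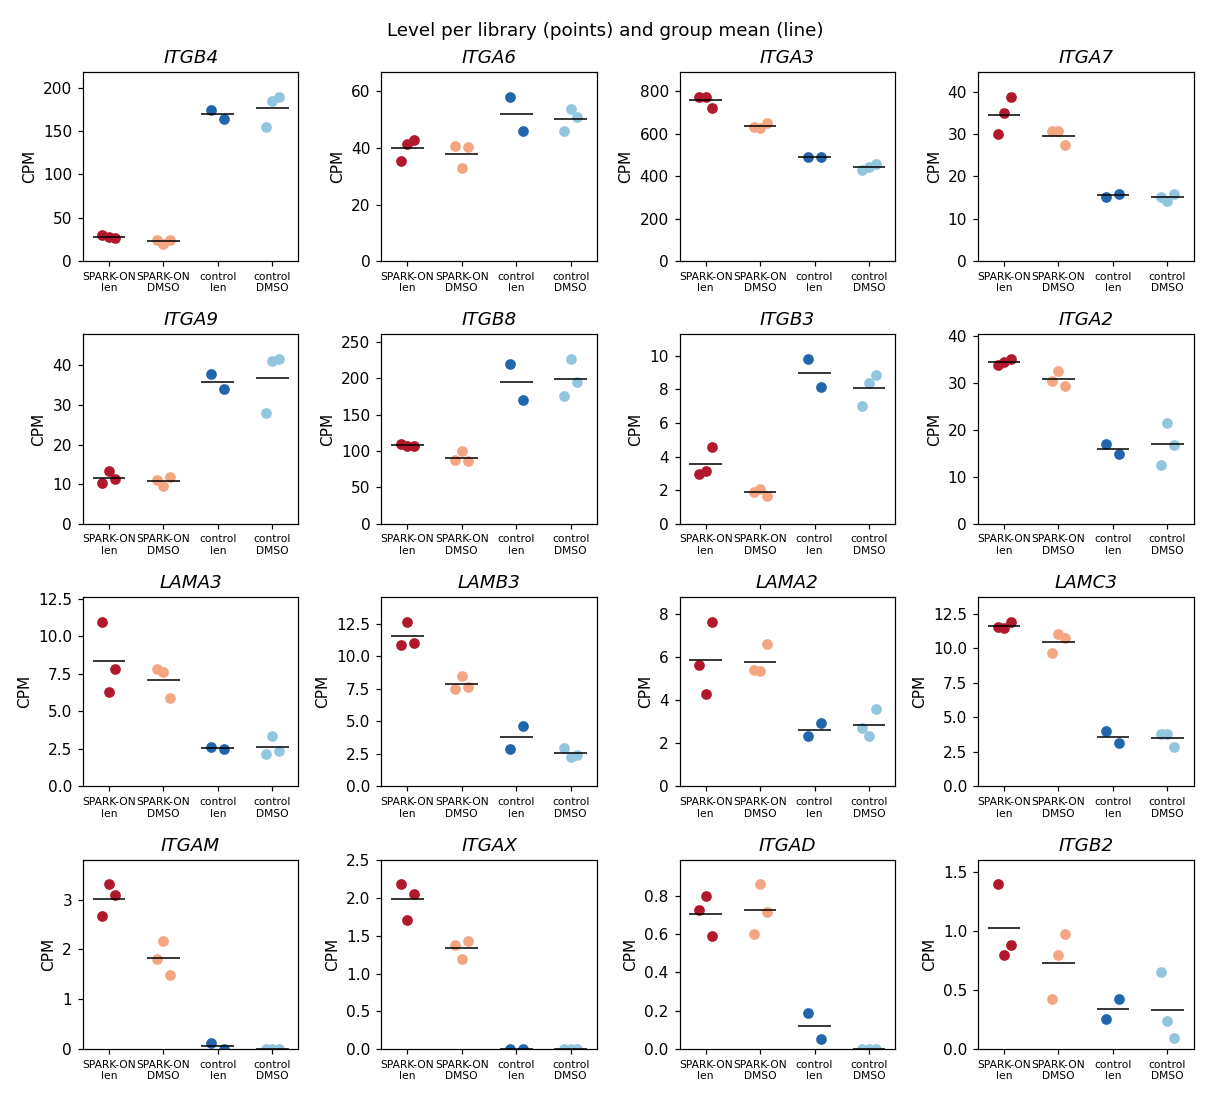
CPM in each library (points) and the group mean (line) for 16 genes, with SPARK-ON groups on the left and control groups on the right of each panel and every axis starting at 0. In the ITGB4 panel SPARK-ON libraries lie at 19.7 to 29.8 CPM and control libraries at 154 to 190 CPM, and in the LAMB3 panel SPARK-ON libraries at 7.50 to 12.7 CPM lie above all control libraries.

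LAMC3, a gamma chain known from the developing brain, had 11.5, 11.4 and 11.9 CPM in SPARK-ON cells with lenalidomide and 9.66, 11 and 10.7 CPM in SPARK-ON cells in DMSO, against 4.05 and 3.14 CPM in control cells with lenalidomide and 3.80, 3.81 and 2.87 CPM in control cells in DMSO. LAMC3 was higher in every SPARK-ON library, by 1.70 (SE 0.19, adjusted p = 1.17e-06) with lenalidomide and by 1.59 (SE 0.163, adjusted p = 2.97e-07) in DMSO. LAMA2, the chain of muscle and peripheral nerve whose loss causes a muscular dystrophy, had 5.63, 4.28 and 7.65 CPM in SPARK-ON cells with lenalidomide and 5.40, 5.34 and 6.59 CPM in SPARK-ON cells in DMSO, against 2.34 and 2.93 CPM in control cells with lenalidomide and 2.71, 2.32 and 3.58 CPM in control cells in DMSO. The lines did not overlap in LAMA2, which changed by 1.09 (SE 0.278, adjusted p = 0.00422) with lenalidomide and by 1.0 (SE 0.233, adjusted p = 0.00203) in DMSO. LAMB1, the common beta chain, had 161, 146 and 146 CPM in SPARK-ON cells with lenalidomide and 146, 151 and 146 CPM in SPARK-ON cells in DMSO, against 99.5 and 91.1 CPM in control cells with lenalidomide and 82.8, 110 and 104 CPM in control cells in DMSO. LAMB1 was higher in every SPARK-ON library, by 0.67 (SE 0.105, adjusted p = 5.83e-05) with lenalidomide and 0.58 (SE 0.092, adjusted p = 5.81e-05) in DMSO, and its exons share 70 bases with DLD on the other strand, at up to 168 CPM.

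LAMB2, the beta chain of mature basement membranes, was the only laminin chain called lower. LAMB2 had 184, 175 and 173 CPM in SPARK-ON cells with lenalidomide and 169, 179 and 170 CPM in SPARK-ON cells in DMSO, against 231 and 227 CPM in control cells with lenalidomide and 193, 240 and 238 CPM in control cells in DMSO. Its control libraries were all above the SPARK-ON libraries, and it changed by -0.37 (SE 0.089, adjusted p = 0.00295) with lenalidomide and by -0.37 (SE 0.0798, adjusted p = 0.000967) in DMSO. LAMC1 had 213 to 238 CPM in SPARK-ON libraries, against 187 to 257 CPM in control libraries. The LAMC1 change was -0.00 ± 0.11 with lenalidomide and -0.00 ± 0.097 in DMSO (log2 ± SE), the closest to 0 of the tested chains.

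LAMA5, the alpha chain of most adult basement membranes, had 218 to 251 CPM in SPARK-ON libraries, against 148 to 227 CPM in control libraries. LAMA5 was called with lenalidomide (log2 0.43, SE 0.13, adjusted p = 0.0138) and not in DMSO (log2 0.26, SE 0.114, adjusted p = 0.0823); its call was lost without SPARK-ON lenalidomide replicate 1 (adjusted p = 0.0551) or control lenalidomide replicate 2 (adjusted p = 0.134). Its exons share 244 bases with ADRM1 on the other strand, at up to 97.8 CPM. LAMA4, the alpha chain of vessels and mesenchymal cells, had 105 to 125 CPM in SPARK-ON libraries, against 84.2 to 116 CPM in control libraries. It was called in DMSO (log2 0.22, SE 0.0802, adjusted p = 0.0335) and not with lenalidomide (log2 0.13, SE 0.0902, adjusted p = 0.26). The DMSO call of LAMA4 was lost in 4 of the 6 fits that left out 1 library, without SPARK-ON DMSO replicate 1 or 2 or control DMSO replicate 1 or 3, where its adjusted p was 0.0627 to 0.138, and without both libraries that stood apart (0.14, adjusted p = 0.131).

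Promoter sequences from RefSeq (GRCh38.p14, 250 bases before to 50 after a gene's start) were at hand for 26 of the 38 genes. They were searched on both strands for the E-box CACGTG, to which MYC family proteins bind with MAX, and for the AP-1 motif TGANTCA, to which FOS and JUN proteins bind, and no match overlapped another. The E-box was in 1 of 26 (3.85%), against 7.26% of all 35116 promoters, and the AP-1 motif in 2 of 26 (7.69%), against 7.71%. The promoters with a match follow, with the match in capitals: LAMA3 (chr18:23872770-23873069, plus strand), a chain higher in SPARK-ON cells, with AP-1 matches at -125 and -69 from the start; ITGA5 (chr12:54419217-54419516, minus strand), also higher, with an AP-1 match at -6; and ITGA6 (chr2:172427086-172427385, plus strand), a subunit lower in SPARK-ON cells, with an E-box at -101.
LAMA3: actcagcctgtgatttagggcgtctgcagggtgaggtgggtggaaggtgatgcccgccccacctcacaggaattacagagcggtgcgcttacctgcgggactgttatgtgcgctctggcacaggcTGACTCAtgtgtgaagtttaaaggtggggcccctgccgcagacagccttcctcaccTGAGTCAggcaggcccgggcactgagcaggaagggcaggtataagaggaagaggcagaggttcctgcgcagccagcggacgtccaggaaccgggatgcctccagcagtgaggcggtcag
ITGA5: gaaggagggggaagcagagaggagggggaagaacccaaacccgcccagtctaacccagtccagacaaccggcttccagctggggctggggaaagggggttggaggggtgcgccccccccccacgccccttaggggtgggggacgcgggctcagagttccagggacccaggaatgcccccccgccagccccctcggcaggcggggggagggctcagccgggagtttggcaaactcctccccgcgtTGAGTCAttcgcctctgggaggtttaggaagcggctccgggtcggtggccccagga
ITGA6: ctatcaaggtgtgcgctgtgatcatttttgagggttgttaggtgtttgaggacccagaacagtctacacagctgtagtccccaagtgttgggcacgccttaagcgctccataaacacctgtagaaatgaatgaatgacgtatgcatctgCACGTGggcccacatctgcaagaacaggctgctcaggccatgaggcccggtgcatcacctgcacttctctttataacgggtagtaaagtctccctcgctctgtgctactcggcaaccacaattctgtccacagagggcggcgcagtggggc
The LAMA3 start shown is inside the gene, which spans chr18:23689443-23956222 in GENCODE 29, and reads of its transcripts cannot be told apart in gene counts. A match describes letters in the window.

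Other genes of the same pathways showed changes of both signs between the lines in DMSO. The counts below stand against 21.1% of all genes tested called higher and 20.4% lower, and nothing particular to a list is read from them. Of 12 other basement membrane genes tested, 2 rose and 4 fell; values below are means ± SD of 3 libraries a group. HSPG2, the perlecan gene, averaged 122 ± 6 CPM in SPARK-ON cells, against 30.9 ± 15 CPM in control cells (change 1.98, adjusted p = 1.02e-06). NTN4, a netrin that disrupts laminin networks, averaged 23.8 ± 0.92 CPM in SPARK-ON cells, against 50.9 ± 4.3 CPM in control cells (change -1.10, adjusted p = 2.84e-08), and SPARC, a collagen-binding matricellular protein, averaged 839 ± 13 CPM in SPARK-ON cells, against 1281 ± 72 CPM in control cells (change -0.61, adjusted p = 2.4e-07). NTN4, SPARC and HSPG2 kept their call and sign with lenalidomide.

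Of 19 other integrin ligands tested, 8 rose and 5 fell. The collagen chain COL1A2 averaged 5.12 ± 0.28 CPM in SPARK-ON cells, against 57.5 ± 6.3 CPM in control cells (change -3.48, adjusted p = 3.47e-13), a larger fall than that of any integrin or laminin gene. LTBP1, which holds latent TGF-beta in the matrix, averaged 14.4 ± 1 CPM in SPARK-ON cells, against 73.6 ± 11 CPM in control cells (change -2.35, adjusted p = 1.13e-11). EDIL3, an RGD ligand of ITGAV integrins, averaged 78.9 ± 2.2 CPM in SPARK-ON cells, against 279 ± 35 CPM in control cells (change -1.82, adjusted p = 6.18e-11). ICAM1, a ligand of the ITGB2 integrins that was named after its value was seen, averaged 16.8 ± 0.89 CPM in SPARK-ON cells, against 2.49 ± 0.68 CPM in control cells (change 2.74, adjusted p = 1.16e-09). COL1A2, LTBP1 and EDIL3 kept their call and sign with lenalidomide.

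Of 31 adhesome genes tested, 6 rose and 6 fell, each near the share over all genes (21.1% higher and 20.4% lower). NEDD9, a docking protein of integrin signalling, averaged 21.8 ± 1.3 CPM in SPARK-ON cells, against 146 ± 15 CPM in control cells (change -2.74, adjusted p = 2.96e-13), and ACTN4, an actin crosslinker, averaged 458 ± 11 CPM in SPARK-ON cells, against 880 ± 98 CPM in control cells (change -0.94, adjusted p = 9.7e-09). TNS2, a tensin that binds integrin tails, averaged 21.0 ± 1.1 CPM in SPARK-ON cells, against 4.69 ± 0.89 CPM in control cells (change 2.15, adjusted p = 4.84e-10). Of 13 tetraspanin, partner and hemidesmosome genes tested, 4 rose and 5 fell. CD82, a tetraspanin that associates with integrins, averaged 33.8 ± 2.7 CPM in SPARK-ON cells, against 2.57 ± 0.12 CPM in control cells (change 3.72, adjusted p = 1.17e-13), while CD9, another tetraspanin, averaged 26.1 ± 1 CPM in SPARK-ON cells, against 44.1 ± 5 CPM in control cells (change -0.76, adjusted p = 7.16e-06). COL17A1, the hemidesmosome collagen that binds ITGB4, averaged 1.98 ± 0.42 CPM in SPARK-ON cells, against 7.59 ± 1.6 CPM in control cells (change -1.93, adjusted p = 1.27e-06). ITGB4 and COL17A1 were thus both lower in SPARK-ON cells. PLEC, the plakin that links ITGB4 to keratin, was higher, at 951 ± 9.8 CPM in SPARK-ON cells, against 576 ± 178 CPM in control cells (change 0.72, adjusted p = 0.000586); it too was named after its value was seen.

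Of 12 genes of laminin processing and O-mannosyl glycosylation tested, 1 rose and 3 fell. MMP14, a membrane protease that cuts laminin chains, averaged 18.0 ± 3 CPM in SPARK-ON cells, against 24.4 ± 1.4 CPM in control cells (change -0.44, adjusted p = 0.00723), and it did not pass with lenalidomide (adjusted p = 0.0683).

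Lenalidomide against DMSO in SPARK-ON cells is the comparison in which, per the series design, n-Myc phase separates, and it also holds the compound's own effect. In the fit of all 11 libraries 0 of the 31 genes passed, with 0.0685% of all genes called higher and 0% lower, and 6 had an unadjusted p below 0.05 (ITGA1, ITGA3, ITGB3, ITGB4, ITGB8 and LAMB3), where 5.36% of all genes had one. DESeq2 called 1 of the 31, ITGA3 (adjusted p = 0.00353). The share of all genes that DESeq2 called is not given here, so this call is not read as particular to the family. The change was positive in 26 of the 31 (1 gene changed sign under RLE scaling), where it was positive in 8307 of all 16056 genes, with a median of 0.16 on the log2 scale against 0.0065 over all genes tested. Among the 24 genes of at least 5 CPM it ranged from -0.09 (ITGA4) to 0.87 (ITGB3), with SE of 0.06 to 0.23.

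When the 6 SPARK-ON libraries were fitted by themselves, with their smaller spread, 3 of the 31 genes were higher and none lower, where 1.79% of all genes were called higher and 0.805% lower. ITGA3 averaged 757 ± 31 CPM with lenalidomide and 637 ± 11 CPM in DMSO (SD, n = 3 each), a change of 0.25 (edgeR adjusted p = 8.16e-06 in the fit of 6 and 0.222 in the fit of 11). All 3 lenalidomide libraries of ITGA3 were above all 3 DMSO libraries. ITGB8 averaged 108 ± 1.5 CPM with lenalidomide and 91.0 ± 8 CPM in DMSO, a change of 0.24 (adjusted p = 0.0045). LAMB3 averaged 11.5 ± 0.98 CPM with lenalidomide and 7.88 ± 0.55 CPM in DMSO, a change of 0.56 (adjusted p = 0.0157). Both were higher in every lenalidomide library. Without the 2 libraries that stood apart, the fit of the other 9 called ITGA3 (0.29, adjusted p = 0.0187). The share of all genes called in that fit is not given here either.

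Some genes with wide gaps between the lines moved as follows with lenalidomide in SPARK-ON cells, without a call. ITGB3 differed by 0.87 (SE 0.232, adjusted p = 0.355), with lenalidomide libraries at 2.97 to 4.56 CPM above DMSO libraries at 1.64 to 2.05 CPM. ITGB4 differed by 0.30 (SE 0.106, adjusted p = 0.756), with 26.8 to 29.8 CPM above 19.7 to 24.6 CPM. Changes were smaller for ITGA9 (0.12, SE 0.165), LAMC3 (0.15, SE 0.151) and LAMA3 (0.25, SE 0.216), whose gaps between the lines were also wide. ITGB1 (-0.01 ± 0.081), ITGAV (0.04 ± 0.1), LAMC1 (0.02 ± 0.097), LAMB1 (0.03 ± 0.092) and LAMB2 (0.04 ± 0.081, log2 ± SE), which are among the most abundant, lay close to 0.

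**Figure D5:**
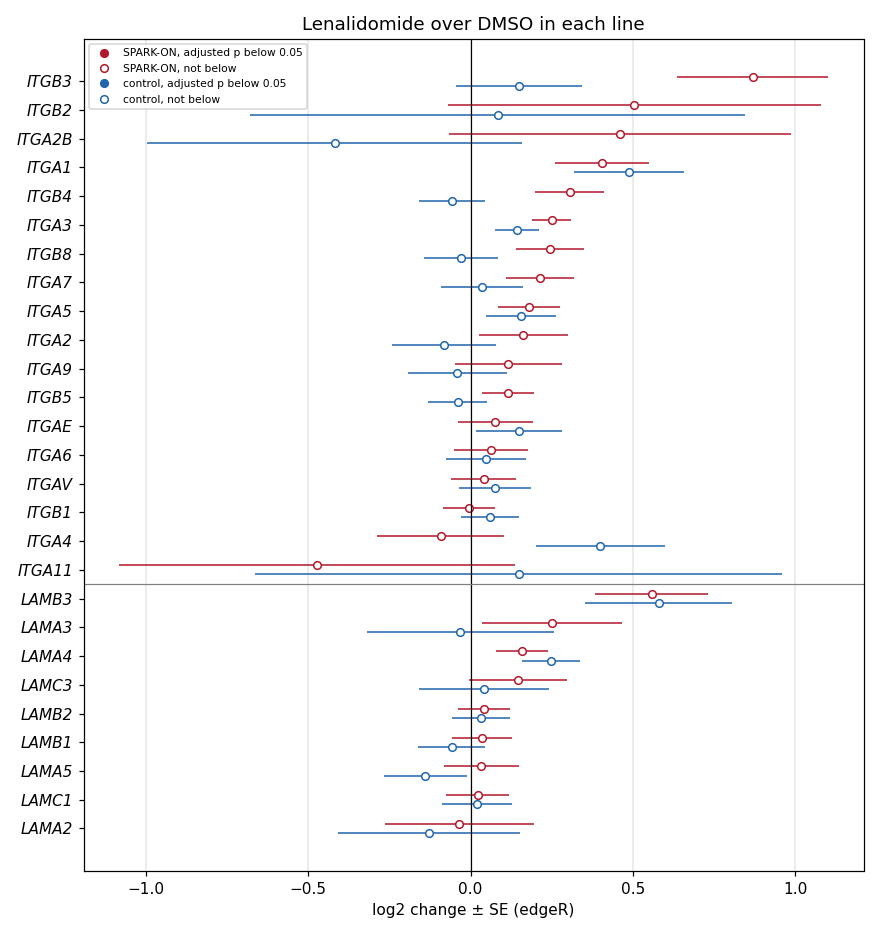
Change with lenalidomide over DMSO in both lines for 27 of the 31 genes tested, as log2 change ± SE from edgeR. No point is filled, since 0 genes passed in either line; ITGB3 at 0.87 leads in SPARK-ON cells.

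In control cells, where lenalidomide acts without SPARK-ON, 0 of the 31 genes passed by edgeR or by DESeq2, with 0.0374% of all genes called higher and 0.00623% lower. The change was positive in 20 of the 31, with a median of 0.05, where it was positive in 7918 of all 16056 genes. An unadjusted p below 0.05 was seen for 6, among them ITGA1, ITGA3, ITGAD, LAMA4 and LAMB3, where 4.82% of all genes had one. That of ITGAD rests on 4 reads with lenalidomide against 0 in DMSO and is not read as a change. LAMB3 averaged 3.80 and 2.56 CPM with lenalidomide and in DMSO, a change of 0.58 (SE 0.227, adjusted p = 0.928), and its control libraries overlapped, at 2.91 and 4.68 CPM with lenalidomide against 2.26 to 2.98 CPM in DMSO. ITGA3 changed by 0.14 (SE 0.0673, adjusted p = 1) there. The SE of control cells in this fit uses the spread over both lines, a coefficient of variation of 9.4%, against 12.9% over control libraries alone.

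The difference between the lines in the response to lenalidomide was tested as an interaction, in which 0 of the 31 genes and 0% of all genes passed. At an unadjusted p below 0.05 there were 3 of the 31 (ITGAD, ITGB3 and ITGB4), where 4.17% of all genes had one. The value of ITGAD rests on 4 reads in control cells with lenalidomide against 0 in DMSO and is not read as a difference. By DESeq2, too, 0 of the 31 genes passed. The ITGB4 change was 0.30 with SPARK-ON and -0.06 without it, a difference of 0.36 (SE 0.147, adjusted p = 1). The ITGB3 change was 0.87 with SPARK-ON and 0.15 without it, a difference of 0.72 (SE 0.303, adjusted p = 1). For ITGA3 the difference was 0.11 (SE 0.0906, adjusted p = 1) and for LAMB3 -0.02 (SE 0.274, adjusted p = 1), so neither was shown to respond differently in the 2 lines.

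Pathway genes gave no call for lenalidomide in SPARK-ON cells in the fit of all libraries, at 0 of 87 genes tested in the 5 lists. An unadjusted p below 0.05 was seen for 14 of the 87, where 5.36% of all genes had one, and in control cells for 2 of the 87, where 4.82% of all genes had one. The smallest p-values were those of SPP1, the osteopontin gene bound by ITGAV, ITGA4 and ITGA9 integrins, at 106 ± 6 CPM in SPARK-ON cells with lenalidomide, against 80.5 ± 6.4 CPM in SPARK-ON cells in DMSO (change 0.39, adjusted p = 0.0997), and of THBS1, the thrombospondin gene, at 303 ± 5 CPM in SPARK-ON cells with lenalidomide, against 227 ± 2.6 CPM in SPARK-ON cells in DMSO (change 0.42, adjusted p = 0.103). CD82 averaged 44.7 ± 0.93 CPM in SPARK-ON cells with lenalidomide, against 33.8 ± 2.7 CPM in SPARK-ON cells in DMSO (change 0.41, adjusted p = 0.236). FERMT2, the kindlin that activates integrins, averaged 39.9 ± 0.49 CPM in SPARK-ON cells with lenalidomide, against 47.9 ± 1.7 CPM in SPARK-ON cells in DMSO (change -0.26, adjusted p = 0.737), TLL1, a protease of the tolloid family, averaged 40.9 ± 0.94 CPM in SPARK-ON cells with lenalidomide, against 31.3 ± 1.1 CPM in SPARK-ON cells in DMSO (change 0.39, adjusted p = 0.692), and NTN4 averaged 28.1 ± 2.6 CPM in SPARK-ON cells with lenalidomide, against 23.8 ± 0.92 CPM in SPARK-ON cells in DMSO (change 0.25, adjusted p = 0.825). Of other integrin ligands 15 of 19 had a positive change, with a median of 0.14, and 8 had an unadjusted p below 0.05, where 8307 of all 16056 genes had a positive change and 5.36% such a p. In control cells 16 of the 19 had a positive change, with a median of 0.073, and 1 had such a p.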

How the data were processed

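Values are whole-number counts per gene deposited by the authors without normalization. Per the submitters' processing notes, FastQC, fastp, HTSeq and edgeR were used with hg38 (aligner, strand setting and annotation: not given in the sources used here). Labels matched the 11 columns used. Another 3 columns matched no labelled sample and were not used, so planned comparisons with baseline SH-EP cells were not made.

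Identifiers were mapped to symbols (61415 of 61533), and to GENCODE 29 (GRCh38) without the version for positions and exon lengths. In R 4.3.3 with edgeR 4.0.16, filterByExpr (minimum count 10) kept 16056 genes. Libraries were scaled by TMM, and CPM is relative to the scaled library size. One mean per group was fitted by glmQLFit (7 residual degrees of freedom), contrasts were tested two-sided by glmQLFTest, and p-values were adjusted by Benjamini-Hochberg over the 16056 genes, with calls at 0.05. The SE of a log2 change was derived from it and the square root of its F value. The procedure was tested on simulated data.

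The genes, lists and tests were chosen with earlier results of these data known. Integrin and laminin genes are named, and of each pathway list the genes with the 3 smallest p-values in SPARK-ON over control cells in DMSO (if called) and for lenalidomide in SPARK-ON cells. The text gives part of these, and a few genes, among them 1 of the 38, are not reported here, although counts over the genes include them. Alternatives were RLE scaling, no filter, DESeq2 1.42.0, only the groups compared, a replicate block, and omission of each library. Omission of SPARK-ON lenalidomide replicate 3 together with control DMSO replicate 1 was chosen after seeing the data. Plots used matplotlib 3.10.9 and Python 3.11.15.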

Additional observations from a re-analysis of the deposited data

How the results depend on the processing

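For SPARK-ON over control cells in DMSO, 26 calls became 23 to 26 when 1 library was left out, and 25 without the filter, 25 by DESeq2, 24 with only the groups compared and 26 without both libraries that stood apart. With lenalidomide, 24 calls became 21 to 24 when 1 library was left out (21 without control lenalidomide replicate 2), and 23, 24, 25 and 24 under the same alternatives in this order. RLE scaling changed no call, and no value that passed changed sign. Of the 31 changes with lenalidomide in SPARK-ON cells, none of which passed, 5 changed sign without SPARK-ON lenalidomide replicate 1. The 0 calls for lenalidomide in SPARK-ON cells became 1 by DESeq2, 3 with only the groups compared, where the spread is that of 6 libraries, and 1 without both libraries that stood apart; they stayed 0 when any 1 library was left out. The 0 calls in control cells and for the difference between lines stayed 0 under every alternative run. Same-numbered libraries were not seen to deviate together (r = -0.18 to 0.04). This cannot exclude a shared batch, since control cells with lenalidomide had 2 libraries and control DMSO replicate 1 stood apart. With a replicate block the calls were 24 between lines in DMSO, 24 with lenalidomide, and 0 for lenalidomide in either line and for the difference. Depth limits the 7 untested genes, ITGAM, ITGAX and ITGAD.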
